A study of Mus musculus with 45 samples.

Results

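Collagens are secreted proteins of the extracellular matrix whose α chains wind around each other into a long, rope-like helix, and each chain is encoded by a gene of its own. The 34 collagen genes described here are those of 23575 genes in the gene table whose symbol is Col, a number, a and a number. RefSeq lists 44 mouse genes with such a symbol, and the other 10 (Col10a1, Col11a2, Col19a1, Col24a1, Col25a1, Col4a3, Col4a4, Col6a4, Col6a6 and Col8a2) were not analysed here. A further 4 entries that join a collagen to another gene or name an antisense transcript were not counted.

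Fibrillar collagens (types I, II, III, V, XI and XXVII) build the tension-bearing fibres of connective tissue, and type IV collagen forms the sheet of basement membranes under epithelia, around vessels and at the surface of the brain. Type VI makes beaded filaments between them, FACIT collagens (such as IX, XII and XVI) decorate fibres, and the multiplexins XV and XVIII sit at basement membranes. Stem cells and progenitors make their own basement membrane components, and fibroblasts, pericytes, glia and parietal endoderm are known as strong collagen producers.

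The data were 45 long-read RNA libraries of mouse cells on their way from neural progenitors to induced pluripotent stem cells. R9 libraries (22) were direct cDNA of poly(A)-enriched RNA on R9.4.1 flow cells, and R10 libraries (23) were PCR cDNA of total RNA on R10.4.1 flow cells. Values were therefore compared within a chemistry, apart from a fit of the difference between the chemistries that is marked as such. All progenitors came from Oct4-GFP stem cells (line O4G, a derivative of R1), and the labels' protocols call them stably transfected. They were labelled WT, without factors, or carried a doxycycline-inducible set named OKMS-Luciferase-AS or OKS-Luciferase-AS. By name the sets differ in Myc, and the role of the luciferase element is not stated. Progenitors grew in NPC medium with EGF and FGF-2 on Geltrex, a basement membrane extract. Reprogramming cells were moved to gelatin and to FBS-LIF with doxycycline (called serum here), so medium, coating and doxycycline cannot be told apart in a comparison with progenitors. Other cultures left serum for 2i-LIF (LIF with the inhibitors CHIR-99021 and PD0325901 in N2B27, and no doxycycline listed), at day 6 in R9 and at an unstated day in R10. Embryonic stem cells were of lines O4G, R1 and, in R10, R1 clone 3, and grew in 2i-LIF.

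Progenitors gave 4 libraries per chemistry (2 WT, 1 OKMS and 1 OKS), stem cells 2 R9 and 7 R10, and WT progenitors kept for 2 days in serum 1 R9 and 2 R10. Serum libraries of OKMS and OKS were 1 per system and day, at days 2, 4, 6, 10, 14 and 20 in R9 and at days 2, 6 and 18 in R10, with OKMS also at days 4 and 10. 2i-LIF libraries were OKMS at day 14 and both systems at day 20 in R9, and both systems at day 18 in R10. The labels do not say that libraries of a group were separate cultures, so p-values measure only the spread between these libraries. Depth was 448250 to 1391635 reads in R9 and 567129 to 4245818 in R10, and 10 to 27 of the 34 collagens had a read in an R9 library and 12 to 29 in an R10 library. The summed neural progenitor markers (8 genes) were 3249 to 5669 CPM in R9 progenitors and 26.1 to 28.4 CPM in R9 stem cells, and the summed pluripotency markers (6 genes) were 10.8 to 30.4 and 12228 to 13613 CPM. In R10 the mitochondrial share of reads was 0.124% to 0.319% in WT progenitors, WT cells in serum and 1 R1 library whose label has no replicate number, and 0.729% to 2.35% in the other 18 libraries.

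The genes differ in the repeat that makes the helix, which needs the codons of glycine (GGN) at the first place of each triplet of codons. In GENCODE M21 reading frames, the fibrillar chains Col1a1, Col1a2, Col2a1, Col3a1 and Col5a1 each had 2 runs of 6 or more such triplets. Their longest unbroken runs were of 338, 339, 339, 344 and 338 triplets, where Col4a1 had 22 runs of 6 or more, the longest of 40. The Col4a2 frame had 23 runs with a longest of 66, Col4a5 had 23 with a longest of 42, and Col18a1 had 13 with a longest of 30. Of 49 whole coding exons of Col1a1, 21 were exactly 54 bases long, against 2 of 50 in Col4a1. An exon of each was picked to make the contrast visible, with GGN codons in capitals. The Col1a1 exon (chr11:94939904-94939957, plus strand, GRCm38) is the earliest in-frame exon of 54 bases that keeps GGN in step. The Col4a1 exon (chr8:11267597-11267656, minus strand) breaks the step. It is the earliest in-frame exon that starts with GGN and whose length is no multiple of 9. The contrast between these exons was therefore set by the choice. They do not show what is typical of either gene, and the place of the Col4a1 exon in the protein was not examined.

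Col1a1 exon: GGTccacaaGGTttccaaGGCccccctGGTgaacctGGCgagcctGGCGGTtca

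Col4a1 exon: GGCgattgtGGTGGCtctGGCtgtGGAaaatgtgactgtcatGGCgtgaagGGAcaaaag

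Promoter windows (250 bases before to 50 after a RefSeq start, GRCm38.p6) were matched for 26 of the 34 genes, with 29 windows in all. The GC box letters GGGCGG, on either strand, were in 18 of the 29, against 35.7% of all 32851 windows, CCAAT in 11 against 37.4% of all, and TATAAA in 3 against 13.6%. The median GC content was 60% in collagen windows and 52.7% in all windows. A match of letters is a description and not a bound site. Col4a1 (minus strand) and Col4a2 (plus strand) lie head to head on chromosome 8, with RefSeq starts at 11312826 and 11312805, so the first 22 bases of their transcripts overlap. The stretch over both starts (chr8:11312801-11312830, plus strand) is shown because these genes carry most of the type IV signal below, and capitals mark the overlap, which holds a GC box. Counts between overlapping genes are uncertain where strand was not used, and the labels do not say whether it was.

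Col4a1 and Col4a2 starts: cggcAGTGCGCGGGCGGCGTCTCCAAgggg

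Col4a6 and Col4a5 form a second pair on chromosome X, with starts 1343 bases apart. The 250 bases upstream of the starts of Col4a5, Col18a1 and Col9a2 are shown because these genes had some of the largest changes, with GGGCGG and CCAAT on either strand in capitals. They are chrX:141475169-141475418 (plus), chr10:77166531-77166780 (minus, the upstream of a pair of Col18a1 starts) and chr4:121039316-121039565 (plus).

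Col4a5 upstream: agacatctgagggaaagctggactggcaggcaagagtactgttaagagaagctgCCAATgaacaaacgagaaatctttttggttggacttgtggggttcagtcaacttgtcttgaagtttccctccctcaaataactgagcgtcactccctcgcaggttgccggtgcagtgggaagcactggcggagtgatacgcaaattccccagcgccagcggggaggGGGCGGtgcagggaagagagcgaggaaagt

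Col18a1 upstream: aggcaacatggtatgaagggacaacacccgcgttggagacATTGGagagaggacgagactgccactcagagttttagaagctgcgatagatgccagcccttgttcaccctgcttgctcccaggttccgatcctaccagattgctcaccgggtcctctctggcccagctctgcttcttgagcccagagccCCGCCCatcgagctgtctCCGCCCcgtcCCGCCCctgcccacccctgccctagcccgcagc

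Col9a2 upstream: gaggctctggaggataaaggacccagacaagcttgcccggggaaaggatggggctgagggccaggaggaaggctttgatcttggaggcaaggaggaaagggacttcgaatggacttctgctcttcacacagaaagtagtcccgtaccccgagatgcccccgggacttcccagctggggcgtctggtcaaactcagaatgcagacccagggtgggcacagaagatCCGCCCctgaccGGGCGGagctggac

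Collagen RNA was a small part of each library and was highest in serum. The 34 genes summed to 257 to 441 CPM in R9 progenitors and 82.4 and 82.8 CPM in R9 stem cells, where CPM is the read count scaled to depth, not corrected for transcript length. The WT library in serum reached 2172 CPM, OKS libraries in serum 548 to 1312 (median 1190), OKMS libraries in serum 305 to 1009 (median 415) and libraries in 2i-LIF 105 to 119. In R10 the OKS libraries were the highest, with 158 to 355 CPM in progenitors, 74.3 to 136 in stem cells, 500 and 956 in WT cells in serum, 598 to 1314 in OKS serum, 217 to 643 in OKMS serum, and 84.6 and 117 in 2i-LIF, within the range of stem cells. Col4a1 alone held 37.4% of the 11419 collagen reads of R9 and 22.2% of the 17523 of R10. Col4a2 (15.4% and 14.4%) and Col18a1 (8.78% and 14.8%) came next in both. On the length-corrected TPM scale of the transcript table, the highest R9 value of Col4a1 was 233, of Col1a1 134, of Col5a1 97.1, of Col18a1 76.1 and of Col4a2 49.4.

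**Figure D1:**
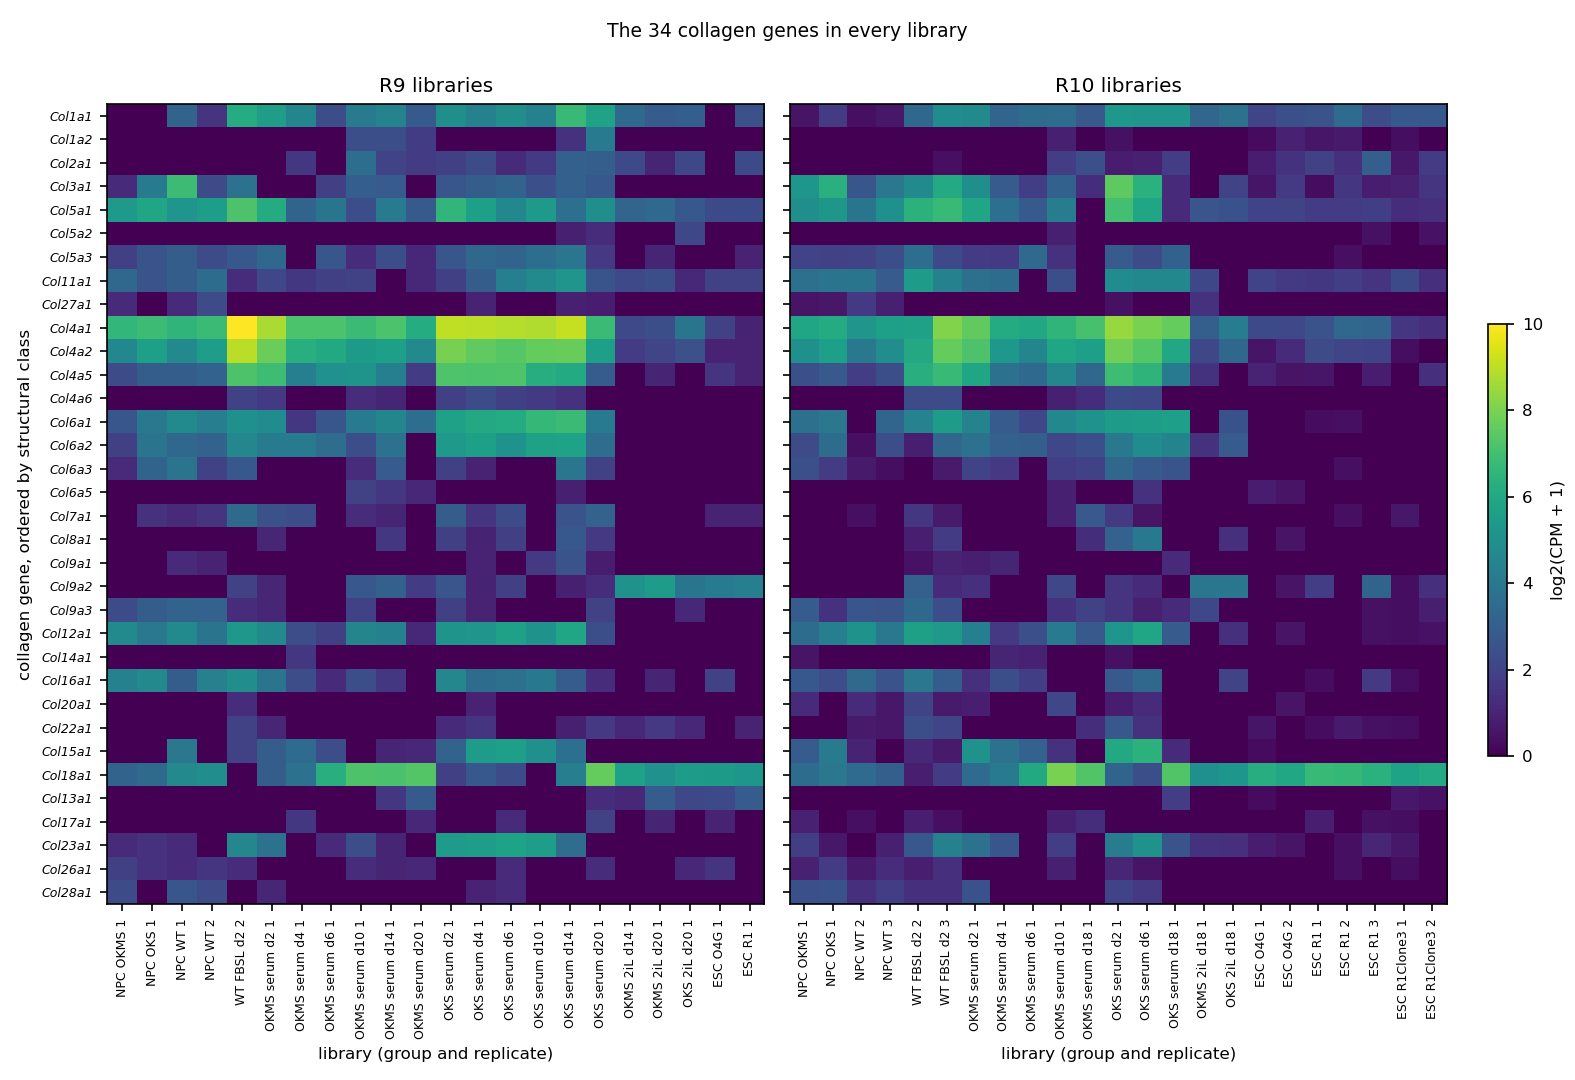
Heat map of log2(CPM + 1) of the 34 collagen genes (vertical axis, ordered by structural class) in every library (horizontal axis), R9 at left and R10 at right. Col4a1, with a highest value of 1112 CPM in the WT library in serum, is the brightest line of the R9 panel, and most other genes are near 0 in stem cells and 2i-LIF libraries.

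Stem cells and progenitors differed in most collagens that could be tested, and mostly downward. Each difference is of log2(CPM + 1) in a limma fit over all genes with Benjamini-Hochberg adjusted p, and a gene was called at an adjusted p under 0.05 with a log2 difference of at least 1. Of the 34 genes, 14 passed the filter on low values in R10 and all 14 were called, 3 higher in stem cells and 11 lower, where 45.8% of all genes tested were called (22.4% higher and 23.5% lower). In R9, 22 passed and 14 were called, 2 higher and 12 lower, where 36.0% of all genes were called (17.6% higher and 18.4% lower). The R9 count was 8 without the R1 library, and a minimum of 5 CPM in place of 1 gave 7 in R10. The median difference of the tested members was -2.11 in R10 and -1.89 in R9, against 0.01 and -0.07 over all genes, but members that passed through a high group alone had to differ. Throughout, a gene without a read, or below 1 CPM, in every library of 1 group passed the filter through the other group alone, so its call was set in part by the filter. Its values and any bound are a description, and no p of such a difference between 2 groups is given as support. In bulk samples, fewer cells of a type and less RNA per cell cannot be told apart.

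The type IV chains were among the most reduced. Col4a1 was at 96.9, 115, 92.3 and 112 CPM in the R9 progenitors (OKMS, OKS and 2 WT) and at 2.84 and 0.931 CPM in the stem cells of O4G and R1. Progenitors were all far above stem cells, with a log2 difference of -5.26 ± 0.30 (SE; limma, adjusted p = 7.2e-05). In R10, Col4a1 was at 36.5 to 70.7 CPM in 4 progenitors and at 1.55 to 9.19 CPM (median 3.77) in 7 stem cell libraries, without overlap, and fell by 3.36 ± 0.35 (limma, adjusted p = 5.64e-07). Within the libraries of low mitochondrial share (the R1 library without a number against 2 WT progenitors) the difference was -2.18, a description since that stem cell group is 1 library. Its partner chain Col4a2 fell by 4.20 ± 0.38 in R9 and 3.66 ± 0.45 in R10, and Col4a5, a chain of another type IV network, by 1.60 ± 0.37 and 1.75 ± 0.28, all called.

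Fibrillar chains were reduced with exceptions. Col5a1, which helps start fibres, was at 41.7, 57.3, 36.1 and 47.4 CPM in R9 progenitors and at 3.79 and 3.72 CPM in stem cells, and fell by 3.27 ± 0.24 (limma, adjusted p = 0.00014). It fell by 3.08 ± 0.27 in R10, and Col5a3 and Col11a1 were called lower in both chemistries. Col3a1, the chain of type III fibres, varied widely among progenitors, at 1.35, 16.9, 116 and 3.87 CPM in R9 and at 36.9, 81.2, 5.40 and 14.6 CPM in R10. Its R10 stem cells were at 0.26 to 2.2 CPM and it fell by 3.50 ± 0.52 (limma, adjusted p = 2.4e-05), whereas the R9 difference of -3.64 ± 1.5 was not called (adjusted p = 0.0973), with both R9 stem cell libraries at 0. The R9 progenitor library with 116 CPM of Col3a1 (WT replicate 1) also had 54.8 CPM of Lum and 22.7 CPM of Dcn, matrix genes of fibroblasts at 2.69 to 10.1 CPM in the other 3. In the R10 progenitors Dcn was at 14.5, 28.6, 0.953 and 9.18 CPM, the same order as Col3a1, and the part of these genes in the result was not tested. Col1a1, the main chain of type I collagen, was at 0.318 to 2.34 CPM in R10 progenitors and at 3.30 to 10.2 CPM in stem cells, a rise of 1.81 ± 0.30 (limma, adjusted p = 7.02e-05). It was not called in R9 (0.07 ± 1.11, adjusted p = 0.964), where values of 0, 0, 8.02 and 1.94 CPM overlapped with 0 and 4.65 CPM, and the sign turned to -1.18 without the R1 library. Col1a2, its partner, failed the filter in both chemistries, with no read in any of the 8 progenitor libraries and at most 0.896 CPM in stem cells.

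Col18a1, the gene of the collagen whose end is cleaved to endostatin, went the other way. It was at 7.17 to 14.6 CPM in R10 progenitors and at 55.4 to 109 CPM (median 73.3) in stem cells, a rise of 2.78 ± 0.21 (limma, adjusted p = 1.26e-08). In R9 it was at 8.08, 10.1, 25.4 and 29.04 CPM against 42.6 and 37.2 CPM, which did not overlap but was not called. Col2a1, the chain of cartilage fibres, had no read in R10 progenitors, 0.58 to 7.10 CPM in stem cells and a stem cell mean at least 8.6-fold above the floor of 3 reads over the 4 progenitors. Among the FACIT collagens, Col12a1 fell to 0 in R9 stem cells from 13.6 to 26.7 CPM, at least 14.4-fold lower, and by 3.97 ± 0.27 in R10. Col9a3 and Col16a1 were also called lower in both. Col9a3 was at 4.04 to 8.02 CPM in R9 progenitors and 1.75 to 6.59 CPM in R10 progenitors. It had no read in R9 stem cells and at most 0.775 CPM in R10 stem cells. It passed the filter through progenitors alone, so its calls were set in part by the filter. Type VI chains Col6a1, Col6a2 and Col6a3 were called lower in R9, each at 0 in stem cells and at least 11.7-fold, 5.9-fold and 4.6-fold lower, and failed the R10 filter, where stem cells had at most 0.33 CPM of each.

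A pair of genes was flagged between the chemistries. Col9a2, a chain of the FACIT collagen IX, had no read in any progenitor library of either chemistry. The R9 stem cells had 17.04 and 18.6 CPM, at least 18.5-fold higher, and the R10 stem cells 0 to 8.22 CPM (median 0.448), with the highest value in the R1 library without a number. Col13a1, a transmembrane collagen, was at 3.79 and 6.52 CPM in R9 stem cells, against no read in progenitors (at least 5.4-fold), and at 0 to 0.58 CPM in R10. The stem cell minus progenitor difference was larger in R9 than in R10 by 3.19 ± 0.74 for Col9a2 and by 2.38 ± 0.34 for Col13a1 (limma interaction). These were the 2 calls among 25 members tested, where 3.63% of all genes were called (2.28% higher and 1.35% lower in R9). Both genes passed the filter through stem cells alone, so the calls were set in part by the filter. With no read in any progenitor, the test in effect set R9 stem cells against R10 stem cells, and the values are a description. A pseudocount of 0.25 in place of 1 left 1 call, that of Col13a1, and edgeR left 0. An antisense transcript named after Col13a1 was at 5.68 to 10.2 CPM in R9 stem cells and 2.35 to 7.55 CPM in R10 stem cells, with 1 read in all 8 progenitor libraries, and reads of the sense and antisense gene may not be separated.

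**Figure D2:**
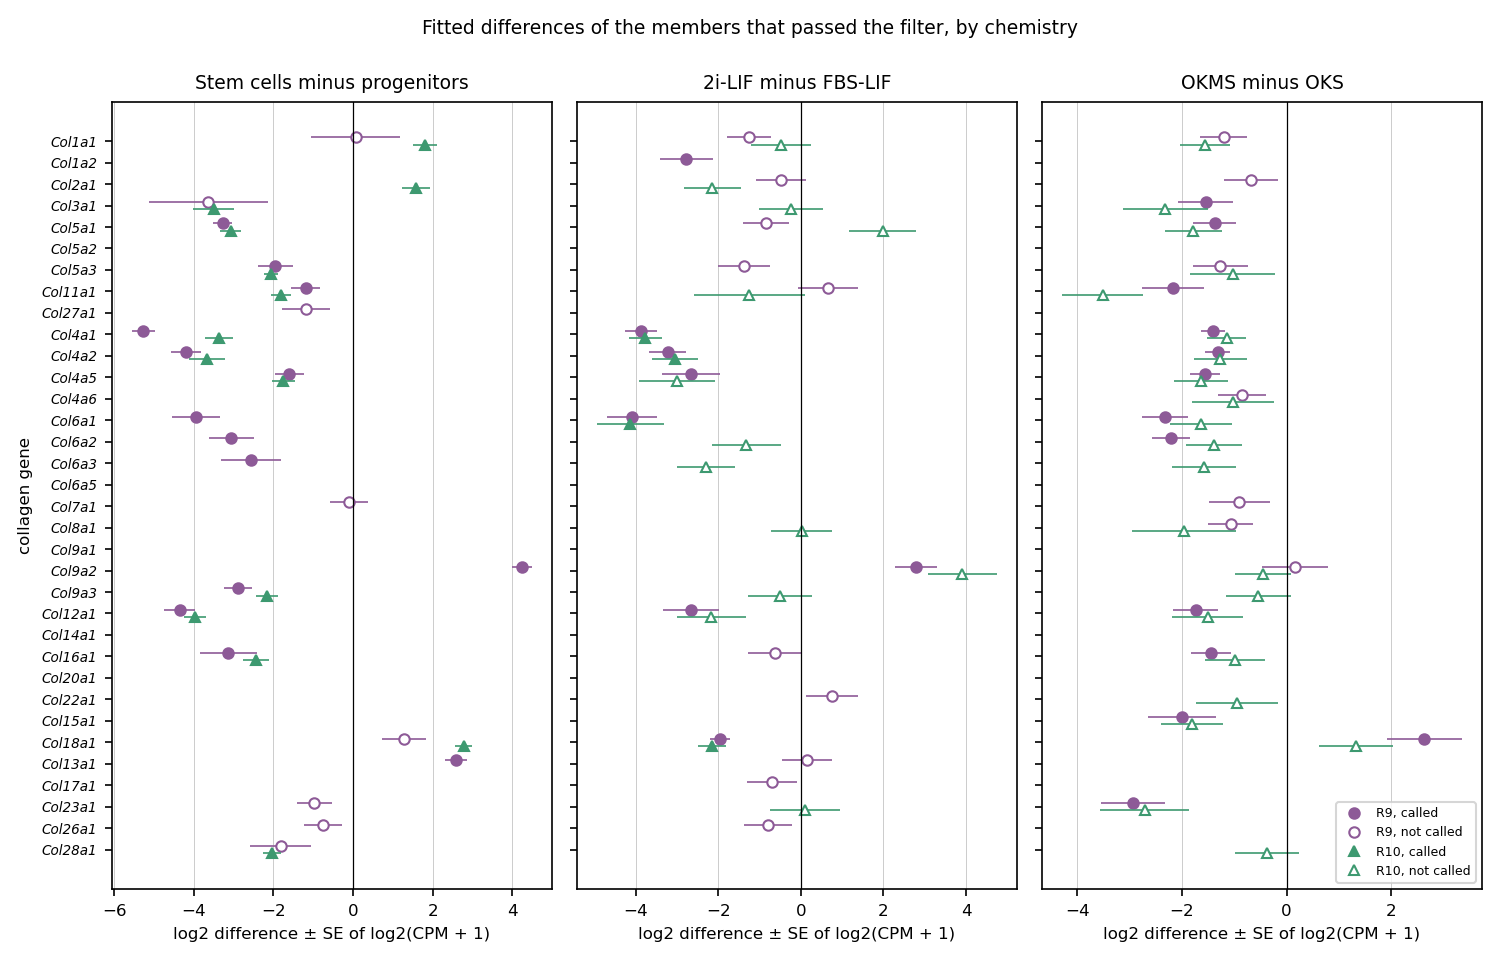
Fitted log2 differences of log2(CPM + 1) with SE (horizontal axis) for the members that passed the filter (vertical axis), in R9 (circles) and R10 (triangles), for stem cells minus progenitors, 2i-LIF minus serum, and OKMS minus OKS; filled symbols were called. Col4a1 lies at -5.26 and -3.36 in the first panel and Col9a2 at 4.23 in R9, and no R10 symbol is filled in the OKMS panel.

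WT progenitors kept for 2 days in serum with doxycycline had more of several collagens than in NPC medium. In R10 (2 libraries against 2), 21 of the 34 passed the filter, 7 were called higher and 1 lower, where 26.8% of all genes were called (14.9% higher and 11.9% lower). Col4a5 was at 2.54 and 4.30 CPM in the WT progenitors and at 76.7 and 108 CPM in serum, a rise of 4.41 ± 0.36 (limma, adjusted p = 0.00209). Col4a6, its neighbour and partner, had no read in WT progenitors and 3.92 and 3.95 CPM in serum, at least 8.7-fold higher. Col1a1 was at 0.318 and 0.574 CPM in progenitors and 9.40 and 28.0 CPM in serum, a difference of 3.59 ± 0.58, and passed the filter through serum alone. In each of these the serum libraries lay above both progenitors. Col23a1, a transmembrane collagen (3.08 ± 0.67), Col4a2 (2.41 ± 0.59), Col5a1 (2.16 ± 0.42) and Col22a1, a FACIT collagen (1.57 ± 0.37), were also called higher, where Col23a1 and Col22a1 were below 1 CPM in both progenitors. Col18a1 was lower, at 10.2 and 7.17 CPM in progenitors and 0.783 and 2.31 CPM in serum (-1.98 ± 0.48; limma, adjusted p = 0.032).

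Col4a1 shows how far the serum libraries differed from each other. It was at 36.5 and 49.6 CPM in the R10 WT progenitors and at 51.3 and 275 CPM in serum, a difference of 1.46 ± 0.75 that was not called (limma, adjusted p = 0.196). In R9 it was at 92.3 and 112 CPM in WT progenitors and at 1112 CPM in the single serum library, a difference of 3.44 ± 0.20 (limma, adjusted p = 0.0619). With 1 serum library in R9, no fit holds the spread of the serum group, so the R9 values are a description. Col18a1 had no read in the R9 serum library and 25.4 and 29.04 CPM in WT progenitors, at least 6.4-fold lower. Col3a1 was not called in R10 (2.12 ± 0.61; adjusted p = 0.0505), with 5.40 and 14.6 CPM against 26.6 and 67.9 CPM, and the type I chain Col1a2 had no read in these libraries of either chemistry. In R9, 26 members passed and 4 were called higher, where 9.40% of all genes were called (8.85% higher and 0.541% lower). They were Col20a1, Col22a1, Col4a6 and Col9a2, each from 1 or 2 reads in the serum library and none in progenitors. They passed the filter through that library alone, which had to make them differ, and 0 were called at a minimum of 5 CPM. The R10 count fell from 8 to 0 to 2 when any of the 4 libraries was left out. A fit that paired the replicate numbers, which are not stated to mark shared cultures, called 13 members, among them Col4a1 and Col3a1. With 2 pairs its p-values rest mostly on the spread of other genes, so they are not given as support.

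Other markers moved with the medium. The 4 astrocyte markers (Gfap, Aqp4, Aldh1l1 and S100b) summed to 1188 and 3056 CPM in the R10 WT libraries in serum and to 42.6 to 181 CPM in R10 progenitors, and to 265 CPM against 72.2 to 135 CPM in R9. Gfap made up 1056 and 3015 CPM in R10 and 236 CPM in R9. S100b was lower in the R9 serum library (25.5 CPM) than in both WT progenitors (54.8 and 131 CPM), and Aldh1l1 had no read there. The 9 mesenchymal markers summed to 90.4 and 242 CPM against 17.1 to 98.7 CPM in R10 and to 716 against 99.6 to 174 CPM in R9; Pdgfra, a defining one, was at 0 and 1.98 CPM in the R10 serum libraries and at 4.24 CPM in the R9 one. Of 7 markers of primitive or parietal endoderm, 4 were measured, and Dab2 made up nearly all of their 74.8 and 161 CPM in the R10 serum libraries, with Gata6 at 0. The 4 endothelial markers summed to 8.24 and 12.9 CPM in the R10 serum libraries against 1.75 to 3.44 CPM in progenitors, and to 15.6 against 2.67 to 6.78 CPM in R9. Most of this was Kdr, and in R9 also Tek, while Cdh5 had no read in WT cells in serum. The part of these genes in the result was not tested.

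Among the collagens, Col15a1 alone was called between cells with and without factors at day 2 in serum. In R10, OKMS and OKS libraries in serum were set against the 2 WT libraries in serum, and of 24 members that passed the filter 1 was called, where 0.740% of all genes were called (0.714% higher and 0.0260% lower). Col15a1, a multiplexin of basement membrane zones, was at 33.2 CPM in OKMS and 65.7 CPM in OKS and at 1.17 and 0.659 CPM in WT, a difference of 4.65 ± 0.60 (limma, adjusted p = 0.0108). The call was lost without the OKMS library, the OKS library or WT replicate 3. The R10 progenitors that carry the factors already had more Col15a1 before induction, at 6.59 CPM in OKMS and 16.9 CPM in OKS against 0.953 and 0 CPM in WT, a difference that was not tested. In R9 progenitors, on the other scale of TPM, Col15a1 was at 11.8 in WT replicate 1 and at 0 in WT replicate 2, OKMS and OKS. A value of 0 TPM does not mean no read, as the R9 OKMS library of day 2 was at 0 TPM and 6.78 CPM. These TPM values therefore cannot show whether R9 progenitors differed in the same way. The mitochondrial share also differed, at 1.51% and 1.64% in the day 2 factor libraries against 0.319% and 0.165% in WT, and cannot be told apart from the factors here. In R9 the WT group is 1 library, so its spread is not in the fit and the R9 values are a description. There, where Col15a1 was at 6.78 and 8.02 CPM against 2.83 CPM, 0 of 26 members and 0% of all genes were called, with 1507 genes at an unadjusted p under 0.05 (limma) and 0 members called by edgeR or DESeq2. Col4a1 differed by 1.09 ± 0.68 in R10 and by -1.22 ± 0.30 in R9, neither called (limma, adjusted p = 0.475 in R10), and the R10 sign turned to -0.11 without the WT replicate 2. Col4a2 differed by 0.68 ± 0.53 and -1.10 ± 0.21, Col1a1 by 0.93 ± 0.57 and -0.90 ± 0.42 and Col3a1 by 0.81 ± 0.74 and -2.45 ± 1.69, none of them called, and Col1a2 was not tested. Among marker and partner genes in R10, Hes5 (57.8 against 0.196 CPM), Lama1 (36.2 against 0.721 CPM) and the factor Pou5f1 were called higher with factors. Hes5 and Lama1 were below 1 CPM in both WT libraries, so their calls were set in part by the filter. Gfap was lower (343 against 2036 CPM) but not called. The part of these genes in the result was not tested.

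**Figure D3:**
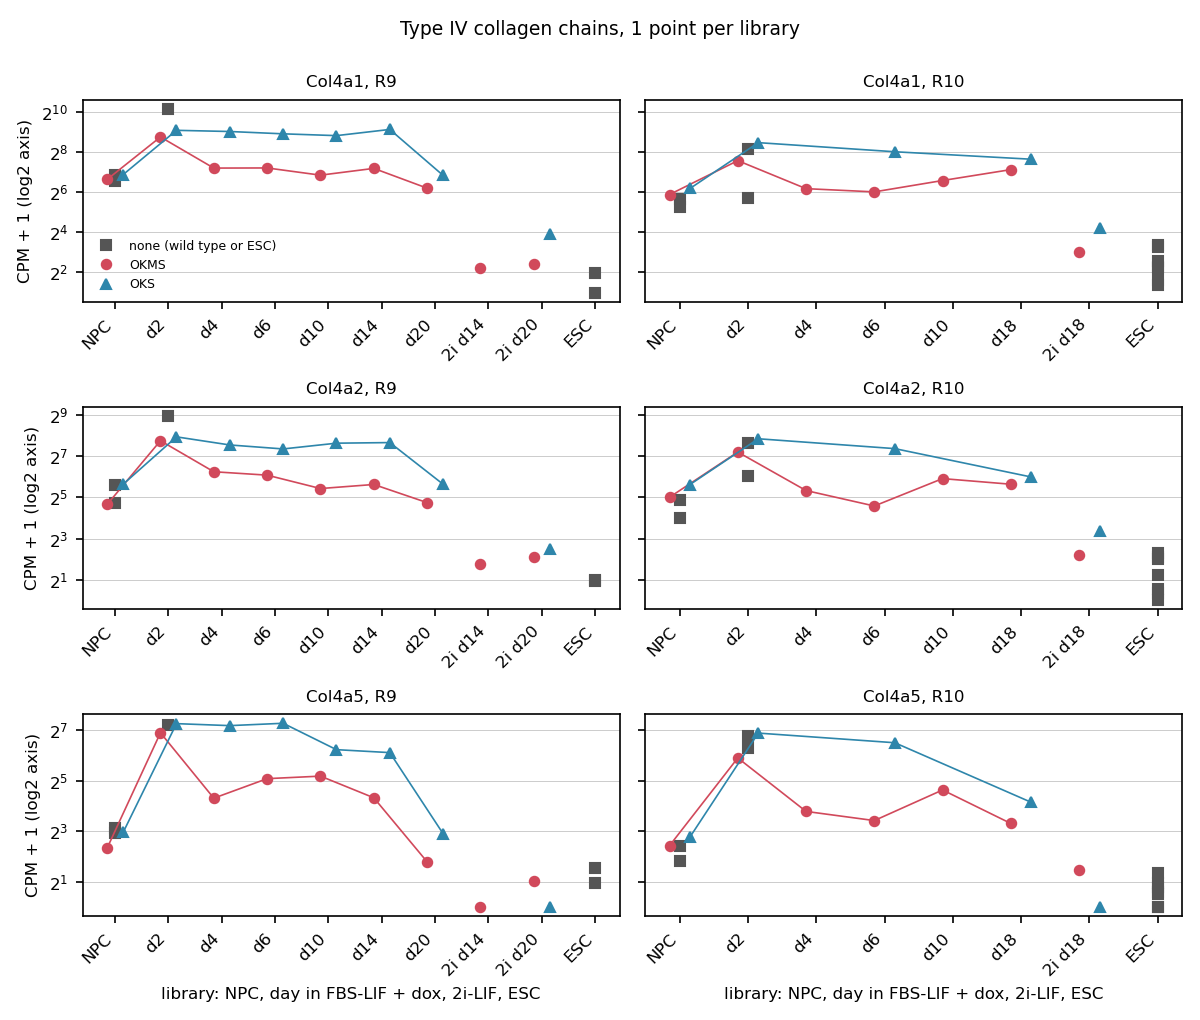
CPM + 1 (log2 axis) of Col4a1, Col4a2 and Col4a5 against culture stage, with 1 point per library, R9 at left and R10 at right; circles are OKMS, triangles OKS and squares cells without factors. Col4a1 in R9 stays at 444 to 550 CPM in OKS from day 2 to day 14, and falls from 424 CPM at day 2 to 144 CPM at day 4 in OKMS.

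Through reprogramming in serum, the type IV chains rose at once and then parted between OKMS and OKS cells. The R9 time course (OKMS and OKS together, with system as an additive term, an F test over days against day 0) called 6 of 30 members that passed, where 10.7% of all genes were called (5.50% higher and 5.24% lower on their day of largest difference). Col4a5 was at 4.04 and 6.74 CPM in the OKMS and OKS progenitors and at 118 and 151 CPM on day 2, a rise of 4.43 ± 0.54 (limma F test, adjusted p = 0.00119). Col4a2 rose by 2.71 ± 0.42 on day 2 (adjusted p = 0.0101) and Col4a1 by 2.16 ± 0.45 (adjusted p = 0.0302), the type VI chain Col6a2 by 2.03 ± 0.62 on day 4 (adjusted p = 0.0281) and Col1a1 by 5.60 ± 0.86 on day 14, each on the day of its largest difference. Col1a1 had no read in those progenitors and was at 4.09 to 105 CPM in the 12 serum libraries, a mean at least 14.0-fold above the floor, and passed the filter through those alone. Col16a1 fell by 3.92 ± 0.67 on day 20 (adjusted p = 0.0233), from 20.2 and 25.3 CPM to 0 in OKMS and 1.44 CPM in OKS. Col1a2 (2.96 ± 0.86; adjusted p = 0.112) and Col3a1 (-1.36 ± 0.97; adjusted p = 0.59) were not called. The count fell to 3 without the OKMS library of day 2, and edgeR called 14. Markers of other cell types moved over the same days, each given at its day of largest difference. Of 9 mesenchymal markers 2 were called higher (Acta2 9.13 ± 0.45) and 2 lower (Twist1 -2.21 ± 0.41), and their sum was 76.3 to 2484 CPM (median 572.5) in the 12 serum libraries against 99.6 to 174 CPM in the 4 R9 progenitors. Des of smooth muscle (4.77 ± 1.13) and the astrocyte gene Gfap (7.22 ± 1.12) were called higher, both without a read in the OKMS and OKS progenitors, while S100b, another astrocyte gene, was lower (-6.56 ± 0.86). Of 8 neural progenitor markers 6 were lower (Fabp7 -9.03 ± 0.57, Olig2 -7.68 ± 0.93), and of 6 pluripotency markers 5 were higher (Pou5f1 9.76 ± 0.77). Pou5f1 is the O of both factor sets, so its reads with doxycycline may include the induced copy. None of 4 endothelial and 4 endoderm markers tested was called, and the part of these markers in the result was not tested.

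OKS cells held more collagen than OKMS cells at the same day. Before induction, Col3a1, Col4a1 and Col5a1 were already higher in the OKS than in the OKMS progenitor library of R9, which was not tested. The factor set cannot be told apart from other differences between these cells. In R9, with day as a block over 6 pairs, 20 of the 34 passed the filter and 13 were called, 12 of them lower in OKMS, where 18% of all genes were called (6.93% higher and 11% lower). Col4a1 was at 424, 144, 145, 112, 142 and 71.4 CPM in OKMS at days 2, 4, 6, 10, 14 and 20 and at 534, 512, 473, 444, 550 and 111 CPM in OKS. The OKS value was the higher on each of the 6 days, by the most on days 4 to 14, and the difference was -1.40 ± 0.23 (limma, adjusted p = 0.00151). Col4a2 (-1.32 ± 0.24; adjusted p = 0.00233) and Col4a5 (-1.56 ± 0.29; adjusted p = 0.00273) went with it. Col6a1, a chain of the beaded filaments, was at 28.3, 2.09, 5.46, 16.9, 23.2 and 11.1 CPM in OKMS and at 52.1, 64.8, 69.6, 100.4, 112 and 15.8 CPM in OKS, and Col6a2 was lower by 2.21 ± 0.36. Col23a1 had the largest of the 12 differences, at 12.4, 0, 1.36, 4.22, 1.06 and 0 CPM in OKMS and 44.1, 45.8, 54.9, 46.8, 10.8 and 0 CPM in OKS (-2.93 ± 0.61; limma, adjusted p = 0.00442). Col11a1 (-2.16 ± 0.59), Col15a1 (-1.99 ± 0.65), Col12a1 (-1.73 ± 0.43), Col3a1 (-1.55 ± 0.53), Col16a1 (-1.44 ± 0.39) and Col5a1 (-1.37 ± 0.41) were called lower in OKMS as well, and Col1a1 was not called (-1.20 ± 0.45; adjusted p = 0.0624).

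Col18a1 was the 1 member of the 20 tested that was called higher in OKMS. In OKMS it was at 6.78, 12.5, 76.4, 148, 139 and 160 CPM at days 2 to 20, and in OKS at 2.67, 5.72, 4.02, 0, 18.2 and 200.5 CPM. It was high in OKMS from day 6 and in OKS on day 20 alone, with a difference of 2.63 ± 0.72 (limma, adjusted p = 0.0163). In R10 it was at 10.3, 17.02, 66.2, 253 and 156 CPM in OKMS at days 2, 4, 6, 10 and 18, and at 8.21, 4.27 and 156 CPM in OKS at days 2, 6 and 18.

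In R10 the comparison of OKMS with OKS had 3 pairs of days, and 0 of 22 members and 0% of all genes were called, with 2389 genes at an unadjusted p under 0.05 (limma), 0 members called by edgeR and 2 by DESeq2. Col4a1 was at 187, 62.7 and 137 CPM in OKMS at days 2, 6 and 18 and at 348, 254 and 196 CPM in OKS, higher in OKS on all 3 days (-1.14 ± 0.37; limma, adjusted p = 0.25). The median of the tested members was -1.44 in R10 and -1.39 in R9, against -0.19 and -0.11 over all genes. Col1a1 (-1.55 ± 0.48), Col3a1 (-2.32 ± 0.82) and Col4a2 (-1.26 ± 0.50) had the same sign and were not called. In R9 the count of 13 fell to 8 without the pair of day 6 and to 0 without day as a block; days 2, 4 and 6 alone gave 10 calls, and days 10, 14 and 20 alone gave 0. The 9 mesenchymal markers summed to 76.3 to 667 CPM in R9 OKMS serum libraries and to 339 to 2484 CPM in OKS. Dcn (-2.23 ± 0.52), Prrx1 (-2.11 ± 0.38), Pdgfrb (-1.76 ± 0.56), Acta2 (-1.75 ± 0.26) and Twist1 (-1.27 ± 0.22) were called lower in OKMS, and Thy1 was not called (0.59 ± 0.41). Pdgfra was without a read in OKMS and was not tested. The 4 astrocyte markers summed to 3.69 to 162 CPM (median 6.68) in OKMS and to 5.75 to 290 CPM (median 73.4) in OKS, and 3 of the 4 were called lower in OKMS (Gfap -2.37 ± 0.56; S100b -2.35 ± 0.47; Aqp4 -1.80 ± 0.48). Of the 6 neural progenitor markers tested, 3 were lower in OKMS (Fabp7 -1.68 ± 0.27), and of 3 tested smooth muscle or pericyte markers, Cspg4 was lower (-2.14 ± 0.47) and Des higher (1.74 ± 0.60). Dab2, an endoderm marker, was lower as well (-1.73 ± 0.48), with the endoderm markers summing to 5.46 to 49.7 CPM in OKMS and 12.2 to 102 CPM in OKS. The 6 pluripotency markers summed to 68.9 to 9440 CPM (median 3036) in OKMS and 83.0 to 8137 CPM (median 107) in OKS. Dppa5a (3.55 ± 0.97), Zfp42 (3.27 ± 0.78) and Nanog (3.15 ± 0.68) were called higher in OKMS, and the other pluripotency markers were not called. The sums include Pou5f1, 1 of the induced factors. At day 2 in R9 it was at a mean of 57.4 CPM in the factor libraries against 1.41 CPM in the WT one. The part of these markers in the result was not tested.

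**Figure D4:**
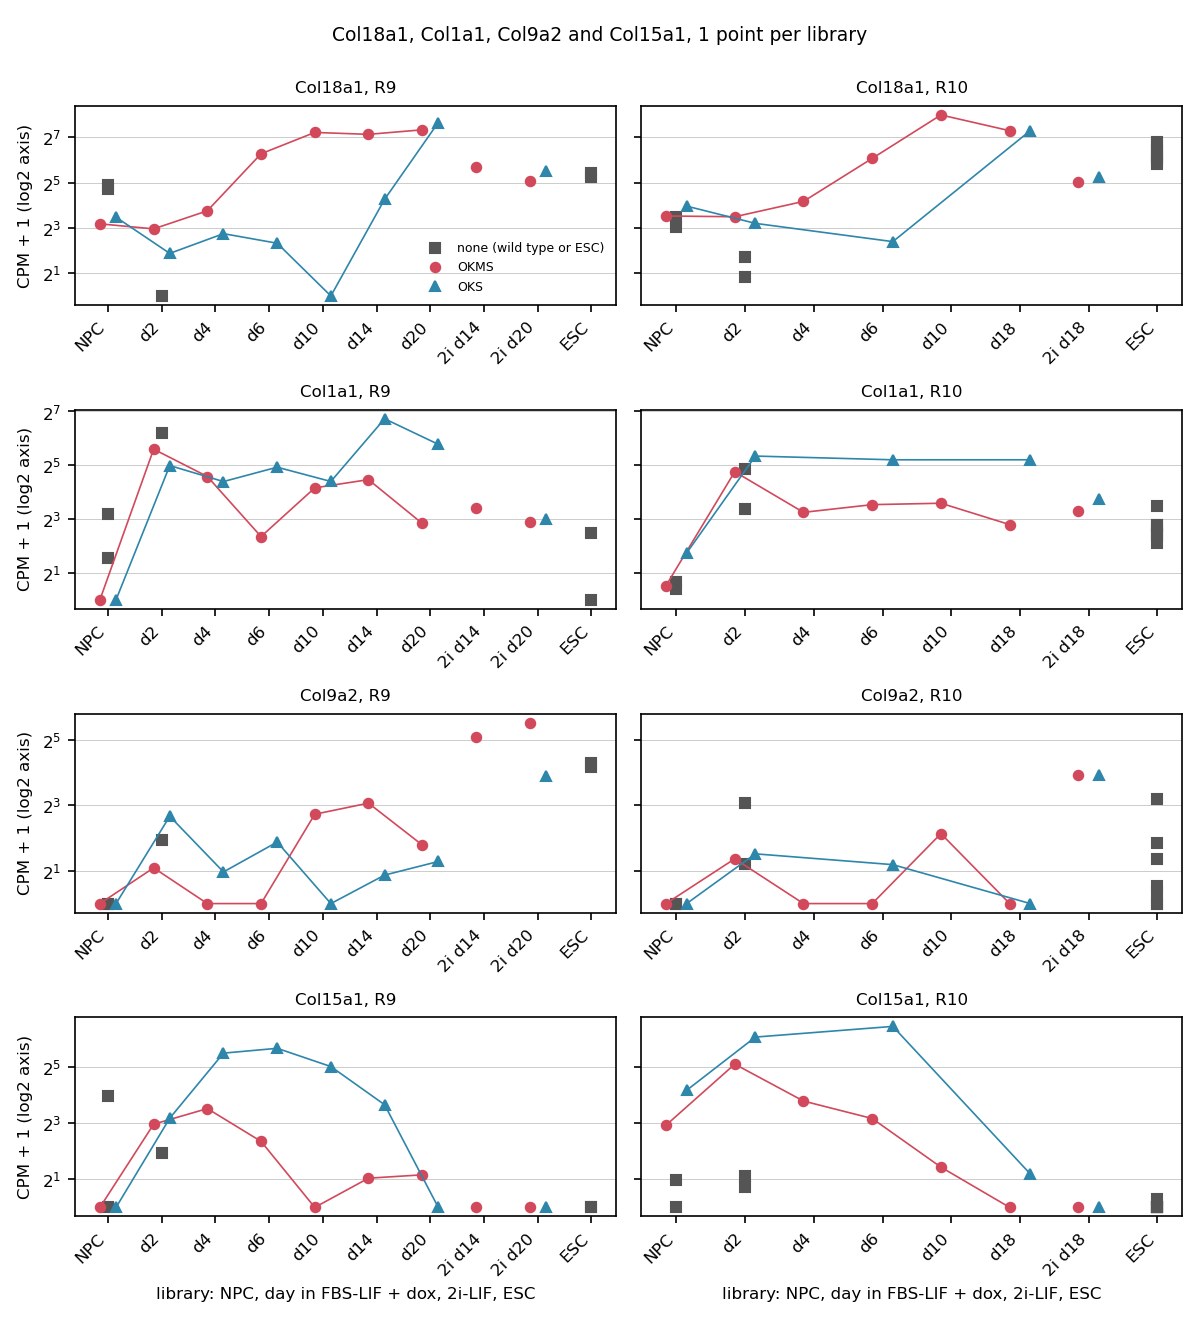
CPM + 1 (log2 axis) of Col18a1, Col1a1, Col9a2 and Col15a1 against culture stage, with 1 point per library, R9 at left and R10 at right; circles are OKMS, triangles OKS and squares cells without factors. Col18a1 climbs to 148 CPM at day 10 in R9 OKMS, where OKS is at 0, and both are at 156 CPM on day 18 in R10.

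Cells late in serum (R9 days 14 and 20, R10 day 18) had left the collagen pattern of progenitors in a mixed way. In R9, 21 members passed and 4 were called higher and 3 lower than in progenitors, where 20.0% of all genes were called (9.70% higher and 10.3% lower), and in R10, 21 passed and 5 were called higher and 6 lower, where 36.2% were called (15.7% higher and 20.5% lower). Col18a1 was at 139, 160, 18.2 and 200.5 CPM in R9 (OKMS then OKS, days 14 and 20) against 8.08 to 29.04 CPM in progenitors, a rise of 2.52 ± 0.68 (limma, adjusted p = 0.0196), and rose by 3.79 ± 0.30 in R10 (adjusted p = 0.000151). Col1a1 was at 21.1, 6.16, 105 and 53.9 CPM in R9, a rise of 3.77 ± 0.88 (limma, adjusted p = 0.00981), and at 5.94 CPM in OKMS and 35.9 CPM in OKS in R10 (3.17 ± 0.71). OKMS values lay below OKS values in both chemistries. Col1a2, its partner chain, had no read in progenitors and was at 4.22, 2.46, 1.65 and 16.5 CPM in R9, at least 6.5-fold higher, and had no read in the R10 libraries of day 18. Col2a1 had no read in progenitors and 24 reads in R9 and 5 in R10 late in serum, at least 5.3-fold and 12.4-fold higher, and its calls were likewise set by the filter.

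Several progenitor collagens were lower late in serum. Col5a1 fell by 1.62 ± 0.41 in R9 (16.9, 6.16, 11.6 and 30.2 CPM against 36.1 to 57.3) and by 4.20 ± 0.52 in R10 (0 and 1.28 CPM against 13.7 to 38.6; limma, adjusted p = 0.000905). Col16a1 fell by 2.64 ± 0.63 in R9 and had no read in R10, at least 3.0-fold lower. Col9a3 was lower in R9 (-2.41 ± 0.54), and Col3a1 (-3.31 ± 0.91) and Col12a1 (-1.39 ± 0.45) in R10, where Col28a1 and Col26a1 had no read. The bound for Col28a1 was 1.6-fold, and none above 1 could be given for Col26a1. Col4a1 was above progenitors in R10 at 137 and 196 CPM (1.63 ± 0.29; limma, adjusted p = 0.00407), with Col4a5 (1.37 ± 0.43). In R9 it was not called (0.61 ± 0.48; adjusted p = 0.399), with 142 and 550 CPM on day 14 and 71.4 and 111 CPM on day 20, and the difference was -0.21 on day 20 alone. Col4a2 was not called in either, and Col3a1 was not called in R9 (-1.46 ± 1.09). The R9 count of 7 became 1 against the OKMS and OKS progenitors only, and 11 without the OKS library of day 14. Acta2, a smooth muscle and myofibroblast gene on the mesenchymal list, was at 2299 CPM in that OKS library of day 14, and its part in the result was not tested.

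Several collagens still present late in serum were lower in 2i-LIF. With each 2i-LIF library paired to its serum library of the same day and system, 18 of the 34 passed the filter in R9 and 8 were called, 7 lower in 2i-LIF and 1 higher, where 7.53% of all genes were called (3.60% higher and 3.93% lower). In R10, 17 passed and 4 were called, all lower, where 1.22% of all genes were called (0.673% higher and 0.544% lower). Col4a1 was at 3.66, 4.30 and 14.0 CPM in 2i-LIF (OKMS day 14, OKMS day 20 and OKS day 20) against 142, 71.4 and 111 CPM in serum. It fell by 3.87 ± 0.39 in R9 (limma, adjusted p = 4.23e-05) and by 3.76 ± 0.40 in R10 (7.05 and 17.2 CPM against 137 and 196). With 2 pairs in R10, the p-values behind the R10 calls of this comparison rest mostly on the spread of other genes. They are not given as support. Col4a2 fell by 3.22 ± 0.45 and 3.04 ± 0.56, and Col4a5 fell by 2.65 ± 0.71 in R9. Col6a1 had no read in R9 2i-LIF and 23.2, 11.1 and 15.8 CPM in serum, at least 14.5-fold lower, and fell by 4.13 ± 0.81 in R10. Col1a2 and Col12a1 were without a read in R9 2i-LIF, at least 6.7-fold and 7.4-fold lower, so the R9 calls of all 3 were set in part by the filter.

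Col18a1 and Col9a2 end the comparison at opposite sides. Col18a1 was at 51.3, 32.2 and 44.2 CPM in R9 2i-LIF against 139, 160 and 200.5 CPM in serum. It fell by 1.95 ± 0.25 in R9 (limma, adjusted p = 0.000261) and by 2.14 ± 0.33 in R10. Col9a2 was at 33.0, 45.1 and 14.0 CPM in R9 2i-LIF against 7.39, 2.46 and 1.44 CPM in serum, a rise of 2.79 ± 0.51 (limma, adjusted p = 0.00382). In R10 it was at 14.1 CPM in both 2i-LIF libraries and had no read in serum, at least 6.8-fold higher and not called. Col1a1 was not called (-1.25 ± 0.53 in R9 and -0.47 ± 0.72 in R10), and Col3a1 was tested in R10 alone (-0.23 ± 0.78). The 4 R10 calls were all lost without the pair as a block, with quantile normalization and with a pseudocount of 0.25, DESeq2 called 2 members and edgeR 5, and the R9 count rose to 13 without the pair of OKMS day 20. Acta2 was at 1.07 to 2.33 CPM or 0 in 2i-LIF libraries of R9 and at 59.1 to 366 CPM in their serum pairs, with the 9 mesenchymal markers summing to 11.8 to 18.3 CPM in 2i-LIF against 76.3 to 430.5 CPM in those pairs. Acta2 made up most of the serum sums. Acta2 and Prrx1 were the mesenchymal markers called, while Pdgfrb (0.02 ± 0.61), Thy1 (-0.73 ± 0.58) and Twist1 (-1.61 ± 0.53) were not called. Cnn1 of smooth muscle had no read in 2i-LIF against 6.16 to 34.5 CPM in serum, and Prrx1 had none against a mean of 8.69 ± 6.87 CPM (SD, n = 3), whereas Des, also of smooth muscle, was not called (22.6 ± 5.59 against 27.8 ± 9.45 CPM). Nanog of pluripotent cells (2.05 ± 0.20) and Pecam1, an endothelial marker also known from stem cells (65.2 ± 5.01 against 16.6 ± 8.52 CPM), were higher in 2i-LIF. Nanog was the sole pluripotency marker called in R9. Pou5f1 (0.03 ± 0.23) and Dppa5a (0.14 ± 0.26) hardly differed, and Esrrb (0.889 ± 0.229), Tdh and Zfp42 (0.998 ± 0.217) were higher but not called. Esrrb and Zfp42 had an adjusted p under 0.05 (limma) and missed only the log2 threshold of 1. In R10, Nanog (2.42 ± 0.29) and Zfp42 (1.75 ± 0.27) were called higher in 2i-LIF. The part of all these markers in the result was not tested.

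Few collagens were called between reprogrammed cells in 2i-LIF and stem cells. In R9, 13 passed and 0 were called, where 0.711% of all genes were called (0.433% higher and 0.278% lower), 1835 genes had an unadjusted p under 0.05 (limma) and edgeR and DESeq2 called 0 members. In R10, 13 passed and 3 were called, where 9.06% of all genes were called (4.28% higher and 4.77% lower). Col18a1 was at 31.7 and 37.5 CPM in 2i-LIF and at 55.4 to 109 CPM in stem cells, a difference of -1.13 ± 0.25 (limma, adjusted p = 0.0138). Col9a2 was higher by 2.87 ± 0.70 (adjusted p = 0.0216), at 14.1 CPM in both against 0 to 8.22 CPM. Of the 3 calls edgeR made 0 and DESeq2 1, that of Col18a1. Col6a2 had 5 reads in all, 1.76 and 6.26 CPM in the 2i-LIF libraries and none in 7 stem cell libraries, and it passed the filter through the 2i-LIF libraries alone, so its call is no support for a difference. Col4a1 stood at 7.05 and 17.2 CPM against 1.55 to 9.19 CPM in R10 (1.23 ± 0.53; adjusted p = 0.145) and differed by 1.40 ± 0.65 in R9 (adjusted p = 0.424). Col4a2 (1.56 ± 0.61 in R10 and 1.17 ± 0.58 in R9) and Col1a1 (0.88 ± 0.37 and 1.86 ± 0.70) were not called, and Col3a1 (-0.04 ± 0.52) was not called in R10. With O4G stem cells only, as the line of origin, 0 members were called in R10.

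Genes that fold, process and bind collagen, and genes of its breakdown, were also mostly lower in stem cells than in progenitors. The breakdown list holds proteases and their inhibitors Timp1, Timp2 and Timp3. Of 18 genes for folding and modification, 17 were tested in R10 stem cells against progenitors, 1 was higher and 11 lower, where 22.4% of all genes were called higher and 23.5% lower; Serpinh1, the collagen chaperone HSP47, was at 47.8 ± 21.8 CPM (SD, n = 7) against 1039 ± 92.6 (n = 4), and Fkbp10 fell by 4.35 ± 0.39. In R9 12 of 18 were lower and none higher, where 18.4% of all genes were called lower. Of the genes for propeptide removal and crosslinking, 6 of 9 tested were lower in R10, with Bmp1, the procollagen C-proteinase, lower by 4.94 ± 0.30 and Pxdn, which crosslinks type IV collagen, by 5.23 ± 0.22. All 5 tested receptors were called in R10, with Mrc2 and Ddr1 lower (-4.77 ± 0.25 and -3.20 ± 0.25) and Ddr2 higher (1.45 ± 0.41), and 7 of 8 breakdown genes were lower. Of the basement membrane partners 3 of 11 were higher (Nid1 3.17 ± 0.38, Lama1 2.80 ± 0.27) and 4 lower (Lamb1 -2.75 ± 0.17), not far from the shares of all genes. Export genes had 1 of 10 higher and 1 lower.

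In the medium comparison of R10, 5 of 11 basement membrane partners were called higher and none lower, where 14.9% of all genes were called higher and 11.9% lower, led by the laminin gene Lamb2 (2.80 ± 0.29) and by Sparc, a collagen-binding protein (2.35 ± 0.49). Crosslinking and processing genes had 4 of 10 higher and 1 lower. Folding genes had 2 of 18 each way, no more than the share of all genes, with P4ha3, a prolyl hydroxylase subunit, higher by 4.48 ± 0.59. Between OKMS and OKS in R9, where 11% of all genes were called lower in OKMS, lower calls were 3 of 17 for folding, 0 of 10 for export, 5 of 10 for processing and crosslinking (Bmp1 -1.98 ± 0.23), 4 of 5 for receptors (Itga1 -2.40 ± 0.50), 4 of 7 for breakdown (Timp3 -2.47 ± 0.32) and 4 of 11 for basement membrane partners (Sparc -1.92 ± 0.28). The sole higher call in these lists was Lama1 (1.65 ± 0.36). The 4 breakdown calls were the proteases Mmp14 and Mmp15 and the inhibitors Timp2 and Timp3. In 2i-LIF against serum in R9, 4 of 15 folding genes (Fkbp10 -3.80 ± 0.44), 4 of 9 crosslinking genes (Bmp1 -2.75 ± 0.65) and 4 of 7 breakdown genes (Timp3 -3.58 ± 0.69) were lower and none higher, where 7.53% of all genes were called. Pxdn was among them, with no read in 2i-LIF against 19.6 ± 12.8 CPM in serum (SD, n = 3 each), so its call was set in part by the filter. The 4 breakdown genes were the proteases Mmp14 and Mmp2 and the inhibitors Timp2 and Timp3. Of 4 receptors 2 were lower (Ddr1 -1.78 ± 0.43) and 1 higher, Ddr2, at a mean of 10.3 CPM against 0.35 ± 0.61 CPM in serum, so that it passed the filter mainly through 2i-LIF. Of 11 basement membrane partners, 1 was higher (Nid1 1.72 ± 0.26) and 2 lower (Lamb1 -2.31 ± 0.28). In R10 the sole calls of this comparison in these lists were Timp3 (-2.44 ± 0.49) and Lamb1 (-2.18 ± 0.43), both lower.

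The genes most like Col4a1 over the 22 R9 libraries, by Pearson's r of log2(CPM + 1) among 13164 genes, were Col4a2 (r = 0.988), Capn2 (0.979), Id2 (0.971), Dusp3 (0.963) and Id3 (0.959). Those most like Col1a1 were Tead3 (0.855), S100a11 (0.836), Klhdc8a (0.831), Edn1 (0.828) and Gm6548 (0.824). These are descriptions over libraries that share their culture conditions and depth.

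Few transcript models of the collagens matched a reference transcript in full. Of 219 models, 26 matched all splice sites of a reference transcript, 67 matched a part, 18 combined known sites in a new way and 108 used a site outside the annotation, in the authors' classes. Col4a1 had 50 models, 7 of them full matches, and Col1a1 had 6 with 3. The most abundant Col1a1 model in R9 was 679 bases long with 2 exons, at chr11:94951090-94951897 on the plus strand, the 3′ end of the gene. It held 108.9 of 133.9 TPM in OKS at day 14, where the full 51-exon model of 4754 bases reached at most 9.94 TPM in R9. For Col4a1, a 3-exon model of 1280 bases at the 3′ end (chr8:11198519-11201794, minus strand) held 101.3 of 232.8 TPM in the WT library in serum of R9 and at most 5.52 TPM in R10. Read length and 3′ coverage were not measured here. Of 16 Col18a1 models, 11 began within 500 bases of the upstream RefSeq start, at 77166530 on chromosome 10, and 0 at the downstream start at 77113705.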

How the data were processed

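The members and gene lists were chosen with earlier results of these data known. Per the submitters' processing notes, reads were aligned with minimap2 2.24-r1122 to mm10. The deposited gene and transcript tables carry the name IsoQuant. Its version, the settings of the counting and the use of strand are not given in the sources used here. The authors deposited a gene table in depth-scaled counts (CPM) and a transcript table in length-scaled abundances (TPM), without raw counts. Whole reads were recovered from the CPM steps (100% of values whole within 0.02), which gave each library's depth. With no other depth in the files, the floor for a group without a read was 3 reads over the group, and it covers counting error only. The 13 columns of the gene table that matched no sample were not used, and 20 gene names had been turned into numbers or repeated.

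Groups were compared in R 4.3.3 with limma 3.58.1 (trended variance) on log2(CPM + 1), a scale that understates changes of low genes. Genes at 1 CPM or more in as many libraries as the smaller group holds were tested, and p-values were adjusted over all of them by Benjamini-Hochberg. Genes called had an adjusted p under 0.05 and a log2 difference of at least 1. Day was a block in OKMS against OKS, and day and system in 2i-LIF against serum. The text names Col1a1, Col1a2, Col3a1, Col4a1 and Col4a2 in each comparison, up to 6 called members in each direction by size, and up to 2 called genes of each pathway list in each direction; values of other members were chosen after they were seen. Alternatives were another pseudocount, other filters, quantile normalization, median centring, edgeR 4.0.16 and DESeq2 1.42.0 on the recovered reads, subsets of groups and leaving out each library. The fits were also run on simulated counts, with changes placed only in genes well above the floor and with a fixed spread between libraries. That setting differs from members at a few reads, so the run does not test their calls. The replicate numbers shared by WT progenitors and WT cells in serum (R10) are not stated to mark a shared culture, so they share only a number. No 2 libraries of a group agreed within sampling noise.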

Additional observations from a re-analysis of the deposited data

Results flagged for a closer look

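Each of 73 pairs of a member and a group of 4 or 7 libraries was tested for a library far from the rest by Dixon's ratio. This ratio is the gap to the nearest value over the whole range on the log2(CPM + 1) scale. Of the 73, 4 exceeded the 95% limit, where chance finds about 1 in 20, so the number is near that of chance. Col18a1 late in serum in R9 was at 18.2 CPM in OKS at day 14 against 139 to 200.5 CPM in the other 3 libraries (ratio 0.846). Col3a1 in the same group was without a read in OKMS at day 20 and at 5.75 to 7.44 CPM in the others (ratio 0.895). Among R9 progenitors, Col23a1 had no read in WT replicate 2 and 1.34 to 1.69 CPM in the others (ratio 0.859). That is 1 read in each of them, so this ratio carries little information. Col28a1 in the same progenitors had no read in OKS and 3.87 to 5.35 CPM in the others (ratio 0.857). The stem cell minus progenitor difference was called larger in R9 than in R10 by limma for Col9a2 (3.19 ± 0.74) and Col13a1 (2.38 ± 0.34). Both had no read in progenitors and passed the filter through stem cells alone, so these calls were set in part by the filter. With edgeR neither was called, and with a pseudocount of 0.25 Col9a2 was not.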

How the results depend on the processing

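Counts of members called changed by over 1.5 times in 43 of 206 alternative settings, and for single genes 22 values turned sign, 206 lost a call, 30 gained one and 1354 kept both. A minimum of 5 CPM in place of 1 gave 7 calls in place of 14 for stem cells against progenitors in R10, 0 for 4 in the R9 medium comparison, 4 for 7 late in serum in R9 and 5 for 8 in 2i-LIF against serum in R9. Quantile normalization gave 8 in the R9 medium comparison and, in 2i-LIF against serum, 5 in R9 and 0 in R10. Median centring gave 2 in the R9 medium comparison and 10 in the time course. A pseudocount of 0.25 gave 0 in 2i-LIF against serum in R10 and 1 in the chemistry difference. By edgeR, 8 were called in the R9 medium comparison, 14 in the time course, 0 in the chemistry difference and 0 in 2i-LIF cells against stem cells in R10. DESeq2 called 5 and 2 in 2i-LIF against serum (R9 and R10), 2 in OKMS against OKS in R10 and 1 in 2i-LIF cells against stem cells in R10. The cause of these changes was not tested, except that fewer genes pass a stricter filter.

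Smaller sets of libraries gave other counts. The R1 library without a number gave 3 against WT progenitors and 9 against all progenitors (1 library, so without its spread), and O4G stem cells alone gave 8 for R9 stem cells against progenitors and 0 for R10 cells in 2i-LIF against stem cells. All 4 progenitors gave 9 in the R9 medium comparison, OKMS and OKS progenitors alone gave 1 late in serum in R9, and days 10, 14 and 20 alone gave 0 in OKMS against OKS in R9. Without its block, OKMS against OKS in R9 gave 0 and 2i-LIF against serum in R10 gave 0. Leaving out 1 library (or pair) at a time gave 14 to 16 and 8 to 15 calls for stem cells against progenitors (R10 and R9), with the 8 without R1, 0 to 2 for the R10 medium comparison, 0 to 1 for the factors in R10 and 3 to 8 for the time course. It gave 6 to 11 and 8 to 10 late in serum (R9 and R10), 8 to 14 and 0 to 2 for OKMS against OKS (R9 and R10), 6 to 13 for 2i-LIF against serum in R9, and 0 to 0 and 3 to 5 for 2i-LIF cells against stem cells (R9 and R10). In the R10 medium comparison, a fit with the replicate block called 13 members, 8 of them shared with the fit without it. The same-numbered libraries deviated together with a correlation of 0.463 over 14418 genes, from 2 pairs that share only a number. The R9 medium and factor comparisons and 2i-LIF against serum in R10 were not run without single libraries, as no residual degrees of freedom would be left.

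Signs turned for differences that were not called. Col1a1 in R9 stem cells against progenitors (0.07) was -0.04 by edgeR, -0.01 by DESeq2, -1.18 with O4G stem cells only and -1.18 to 1.32 without single libraries. Without single libraries the factor difference in R10 was -0.45 to 2.08 for Col3a1, -0.11 to 2.29 for Col4a1 and -0.12 to 1.49 for Col4a2, and that of Col3a1 in the time course was -2.05 to 1.38. Col3a1 in R10 was 0.11 by edgeR in 2i-LIF against serum. In 2i-LIF cells against stem cells it was 0.23 with quantile normalization, 0.01 with median centring, 0.45 by edgeR, 0.52 by DESeq2 and -1.06 to 0.99 without single libraries. It was 0.14 in the R9 medium comparison with all 4 progenitors, and Col4a1 late in serum in R9 was -0.21 on day 20 alone. At these depths 1 read was worth up to 2.23 CPM, so members at 1 or 2 reads carry little information.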
